A study of Mus musculus with 6 samples.

Results

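Mrc1-positive C1q-high macrophages were studied among the CD45+ immune cells of tumours grown under the skin from YUMM1.7, a mouse melanoma line, by CITE-seq, which counts RNA molecules and surface antibody tags in the same single cells. The cells were chosen by their own RNA. A barcode was taken when it held at least 10 unique molecular identifiers (UMIs, single counted RNA molecules) of C1qa, C1qb and C1qc together, at least 2 of Mrc1, fewer than 2 of Ly6c2, fewer than 3 of Inhba and Cxcl3 together, none of Cd3e or Cd3d, and fewer than 10 of the collagen genes Col1a1, Col1a2 and Col3a1. This gave 2422 cells of the 20407 that carried 1 hashtag, or 11.9%, with 42 to 503 cells per mouse. The 12 genes of this rule are given below as a description only. Cells passing the same limits with fewer than 2 Mrc1 UMIs (Mrc1-low cells, 1137) were the closest comparison, beside 1877 transitional cells with both C1q and Ly6c2, 1638 C1q-low Ly6c2-high monocytes and 3802 T cells.

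The 16 female hosts were 8 weeks old and fell into 4 conditions of 4 mice. LysM-Cre mice (GRf/f-LysMCre) carried floxed Nr3c1, the gene of the glucocorticoid receptor, together with a Cre recombinase driven from the lysozyme gene Lyz2 and so active across monocytes, macrophages and neutrophils. Floxed mice (GRf/f) carried the floxed gene without Cre. Each genotype received anti-PD-1 or, as the control, an isotype antibody at 12.5 mg/kg, 2 times per week for 3 weeks from about day 7 after injection of 250000 tumour cells, and tumours were taken at day 28. All mice thus had a floxed Nr3c1, a YUMM1.7 tumour and an injected antibody. Each mouse of a pool had its own hashtag, and 8 mice were mixed into each of 2 pools, E5 and E6, with 2 mice of every condition in each. Mice are numbered within a condition only to name them, 1 and 2 in E5 and 3 and 4 in E6. The deposited antibody table gives the hashtags of the floxed isotype mice, 8 and 9, the same tag, while the count matrices list them as separate features, so the assignment of cells between these mice could not be checked.

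C1q is the recognition part of the classical complement pathway, which macrophages make themselves and which tags dying cells and immune complexes for uptake. Mrc1 encodes the mannose receptor CD206, an endocytic receptor that clears glycoproteins and collagen fragments. Macrophages with both are found in resting tissues, often along vessels, and in many tumours, where they are known for the clearance of dying cells and for weak inflammatory output. PD-1 is an inhibitory receptor of T cells and the target of the injected antibody.

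On the GRCm38.p6 mouse build, the C1q genes lie side by side on chromosome 4 (C1qb at 136880126-136886200, C1qc at 136889801-136892936 and C1qa at 136895916-136898844), and Mrc1 lies on chromosome 2 at 14229414-14332023. Levels are counts summed over a mouse's cells and scaled to a common total (CPM). C1qa averaged 5502 ± 556 CPM in Mrc1-positive macrophages (SD, n = 16), against 3934 ± 999.8 CPM in Mrc1-low cells, 3048 ± 483 CPM in transitional cells, 54.1 ± 11.7 CPM in Ly6c2-high monocytes and 128 ± 24.2 CPM in T cells (SD, n = 15 each). Mrc1 averaged 829.8 ± 185 CPM in Mrc1-positive macrophages (SD, n = 16), against 41.3 ± 16.1 CPM in Mrc1-low cells, 213 ± 137 CPM in transitional cells, 39.3 ± 25.8 CPM in Ly6c2-high monocytes and 22.8 ± 7.65 CPM in T cells (SD, n = 15 each). Pf4, a platelet-factor chemokine that the rule did not read, was also highest in them, with 1213 ± 394 CPM in Mrc1-positive macrophages (SD, n = 16), against 253 ± 141 CPM in Mrc1-low cells, 236 ± 179 CPM in transitional cells, 26.4 ± 13.7 CPM in Ly6c2-high monocytes and 29.3 ± 14.8 CPM in T cells (SD, n = 15 each). The Mrc1-low and transitional cells did not differ beyond their spread in Pf4. Stab1, a scavenger receptor of macrophages and vessel walls, averaged 404 ± 167 CPM in Mrc1-positive macrophages (SD, n = 16), against 73.3 ± 20.8 CPM in Mrc1-low cells, 124 ± 89.8 CPM in transitional cells, 38.2 ± 13.8 CPM in Ly6c2-high monocytes and 16.1 ± 4.82 CPM in T cells (SD, n = 15 each). Floxed anti-PD-1 mouse 2, the smallest sample, is not in the means of the other classes, in each of which it had fewer than 20 cells. All 8 markers of the label were present. Beside the 4 genes of the rule, Pf4 was seen in 84.4% of Mrc1-positive macrophages and Stab1 in 79.6%. The share with a UMI was 15.4% of T cells for Pf4 and 8.84% for Stab1, which was taken as the background from free RNA, at a median depth of 5935 UMIs in T cells against 14606.5 in Mrc1-positive macrophages. After cells were thinned to 5000 UMIs, which leaves out shallower ones and kept 2205 Mrc1-positive macrophages and 2430 T cells, the shares were 74.8% and 65.8% in Mrc1-positive macrophages and 10.0% and 5.76% in T cells.

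The 2 pools held 31915 barcodes, with a median of 14924 UMIs per Mrc1-positive macrophage in E5 and 14364.5 in E6. Summed over their cells, the mice had 596241 to 8550228 UMIs. Barcodes carrying more than 1 hashtag (2492 in E5 and 3310 in E6) were left out as doublets of different mice. Doublets within a mouse remained, and no doublet caller was run. Of the barcodes, 805 sequences occurred in both pools, and 2 of these belonged to Mrc1-positive macrophages in both. Mrc1-positive macrophages held a median of 3601.5 genes and 3.36% mitochondrial UMIs. Mrc1-low cells were shallower, at a median of 7496 UMIs, and in LysM-Cre isotype mouse 4 at 2955.5. The limit on Mrc1 thus divides cells partly by depth: after thinning to 5000 UMIs, 54.6% of C1q-high cells were Mrc1-positive, against 68.1% without thinning. Just inside the limit, 321 cells (13.3%) held exactly 2 Mrc1 UMIs. These had a median C1q sum of 122 UMIs in E5 and 88 in E6, while the 174 and 229 cells just outside it, with 1 Mrc1 UMI, had medians of 110 and 60. A single Ly6c2 UMI was present in 387 Mrc1-positive macrophages (16.0%).

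Markers of other cells were present at differing levels. Summed T and NK cell markers (10 of 12 with counts, Cd3e and Cd3d at 0 by the rule) ranged over mice from 12.3 to 149.6 CPM. Melanoma markers reached at most 2.49 CPM, with Mlana, Tyrp1 and Tyr at 0. The 4 haemoglobin genes on the list spread most, with sums of 15.3 to 10808 CPM, and a haemoglobin UMI (Hbb-bs) was found in 35.4% of Mrc1-positive macrophages and 26.2% of T cells. Neutrophil markers ranged from 87.96 to 1924 CPM, dendritic cell markers from 4.36 to 65.1 CPM and B cell markers from 12.1 to 98.6 CPM.

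Some genes were even across the 16 mice and others varied many-fold. C1qa ranged from 4499.9 to 6362 CPM (median 5591), Csf1r, the receptor of the growth factor CSF1, from 459 to 792 CPM (median 622), and Apoe, a lipid carrier, from 10072 to 25588 CPM (median 17583). By contrast Cxcl9, a chemokine that draws T cells, ranged from 10.2 to 1422 CPM (median 437), with floxed anti-PD-1 mouse 2 lowest and LysM-Cre anti-PD-1 mouse 4 highest. Mgl2, a galactose-type lectin of alternatively activated macrophages, ranged from 11.2 to 545 CPM (median 78.7), and Retnla, a secreted protein of the same state, from 0 to 364 CPM (median 12.99). Retnla was highest in LysM-Cre anti-PD-1 mouse 3 and had no UMI in 4 mice, and no condition held all the high mice. Arg1, which breaks down arginine, ranged from 15.8 to 497 CPM (median 205), and H2-Aa, an MHC class II chain, from 1277 to 5375 CPM (median 3462). Markers of resident macrophages of other tissues were rare: a Lyve1 UMI was found in 1.73% of cells and a Timd4 UMI in 0.50%, whereas Folr2 was found in 37.8%.

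Within the C1q-high cells of the same mouse, Mrc1-positive macrophages held several times more RNA of resident-type macrophage genes, and less of monocyte, interferon and antigen-presentation genes, than Mrc1-low cells. The cells were divided by the UMIs of 1 gene in these same libraries, so the gene differences below describe the division and no test is read from them. Over the 15 mice with at least 20 cells of each class, edgeR called 1995 of 9584 genes, 20.8%, with 9.79% of the tested genes higher and 11% lower in Mrc1-positive macrophages. Folr2, a folate receptor, ranged over mice from 15.3 to 174 CPM (median 132) in Mrc1-positive cells, against 1.41 to 48.1 CPM (median 14.8) in Mrc1-low cells. Stab1 ranged from 144 to 729.9 CPM (median 351) in Mrc1-positive cells, against 40.9 to 118 CPM (median 70.9) in Mrc1-low cells. The 2 ranges of Stab1 did not overlap, and those of Folr2 did, although Mrc1-positive macrophages were higher in every one of the 15 mice for both. Gas6, the ligand that bridges dying cells to TAM receptors, ranged from 36.96 to 267 CPM (median 111) in Mrc1-positive cells, against 3.89 to 86.3 CPM (median 18.3) in Mrc1-low cells. Selenop, a secreted selenium carrier, ranged from 722 to 1391 CPM (median 910.3) in Mrc1-positive cells, against 167 to 609 CPM (median 360) in Mrc1-low cells, again without overlap.

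The other genes named as higher were, in mean CPM of Mrc1-positive macrophages and Mrc1-low cells, Fcrls, an Fc receptor-like scavenger receptor (570.4 against 98.9 CPM), Pf4 (1165 against 253 CPM), the carbonyl reductase Cbr2 (97.1 against 34.5 CPM), the coagulation factor F13a1 (265 against 81.98 CPM) and Igfbp4, which binds insulin-like growth factors (124 against 45.2 CPM). To these came the monocyte-attracting chemokines Ccl8 (741 against 224 CPM) and Ccl7 (298 against 97.03 CPM) and the adhesion molecule Vcam1 (150.5 against 55.96 CPM). All 12 were higher in 15 of 15 mice, with log2 differences of 1.43 to 2.44, and kept their sign when cells were thinned to equal depth. Of 26 tested genes of resident and perivascular macrophages, 19 were called higher and 1 lower, with a median log2 difference of 1.89, against 0.01 over all genes. That list holds Pf4, Fcrls, Stab1 and Gas6, which were picked to mark these cells. The gene called lower in it was Timd4, a phosphatidylserine receptor, at 0.531 against 4.34 CPM.

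Lower in Mrc1-positive macrophages was Plac8, a gene of recently arrived monocytes, which ranged from 18.9 to 201 CPM (median 59.1) in Mrc1-positive cells, against 69.7 to 1253 CPM (median 558) in Mrc1-low cells and was lower in all 15 mice. Cxcl9 ranged from 95.4 to 1422 CPM (median 442) in Mrc1-positive cells, against 325 to 3935 CPM (median 754) in Mrc1-low cells, also lower in all 15. Chil3, a chitinase-like protein of monocytes, averaged 44.9 against 166 CPM, and the interleukin-1 decoy receptor Il1r2 averaged 64.2 against 204 CPM, each lower in 14 mice. Ifitm1, an interferon-induced membrane protein (364 against 1147 CPM), the arginine-making enzyme Ass1 (35.2 against 125 CPM) and the aspartic protease Napsa (83.2 against 214 CPM) were lower in 15. The T cell chemokine Ccl5 (223 against 609 CPM) was lower in 13 and the DNase Dnase1l3 (26.3 against 78.4 CPM) in 14. Gpr141, an orphan receptor, Klrb1b, a lectin-like receptor, and the MHC class I-like gene H2-Q6 completed the 12, the last pair uncertain because they have close copies in the genome.

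The counts by group describe the same division by Mrc1 UMIs, which is partly one by depth, and no test is read from them. Over all tested genes, 9.79% were called higher and 11% lower. By group, 9 of 11 tested MHC class II genes were called lower and none higher (median -0.82 log2). Among them H2-Aa ranged from 1277 to 5375 CPM (median 3790) in Mrc1-positive cells, against 2377 to 7886 CPM (median 5353) in Mrc1-low cells. Interferon-response genes were called lower in 27 of 33 cases and higher in none (median -0.69), monocyte genes lower in 13 of 16 (median -0.86) and hypoxia and glycolysis genes lower in 12 of 16 (median -0.35). Of the immediate-early and heat-shock genes that tissue dissociation induces, 11 of 17 were called lower (median -0.36). Cell cycle genes were called higher in 9 of 17 cases (median 0.69), with the proliferation marker Mki67 at 152 against 54.3 CPM. Genes of scavenger and lectin receptors were called higher in 8 of 17 (median 0.63) and those of iron and haem handling higher in 7 and lower in 1 of 14 (median 0.33). Lysosomal genes were called higher in 11 and lower in 2 of 20 (median 0.39), with cathepsin B (Ctsb) at 2618 against 1306 CPM. Chemokines parted, with 9 higher and 5 lower of 19 (median 0.83): the genes Ccl2 (387 against 198 CPM) and Ccl12 (478 against 260.4 CPM) were higher, beside Ccl7 and Ccl8, while Ccl5, Cxcl9 and Cxcl10 (237 against 422 CPM) were lower. Genes that mark lipid-laden macrophages were called higher in 9 and lower in 4 of 21 (median 0.52), with Trem2, a lipid-sensing receptor, at 515 against 282 CPM. Mean sums of other cells' markers were 843 against 1478 CPM for monocytes, 453 against 887 CPM for neutrophils and 45.7 against 83.01 CPM for T and NK cells in Mrc1-positive and Mrc1-low cells. They were nonetheless higher in Mrc1-positive cells in 3, 7 and 2 of 15 mice in that order, and the neutrophil sums of Mrc1-low cells ranged from 96.2 to 3395 CPM. Dendritic cell markers averaged 26.7 against 61.9 CPM, reaching 291 CPM in Mrc1-low cells of 1 mouse. Mast cell and basophil markers averaged 4.28 against 48.1 CPM, reaching 584 CPM in Mrc1-low cells. Each of these sums was higher in Mrc1-positive cells in 6 of 15 mice. Their part in the differences was not tested.

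**Figure D1:**
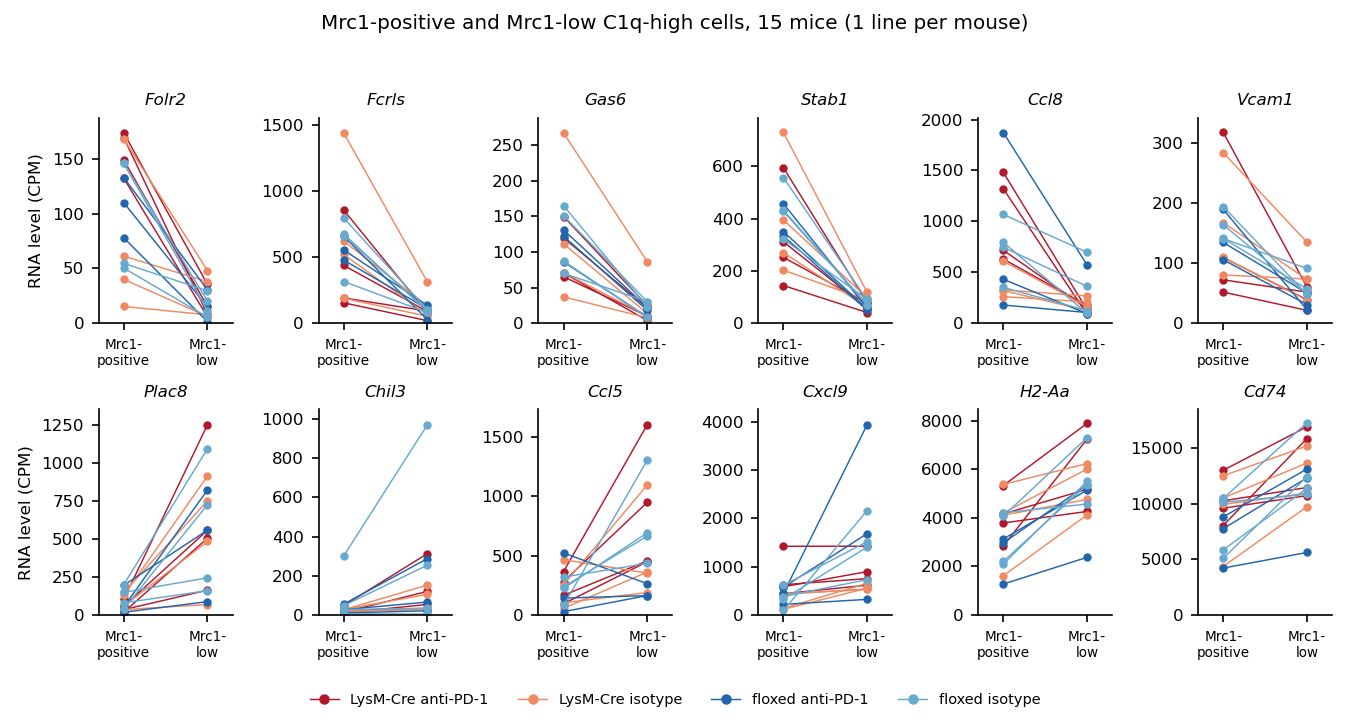
RNA levels (CPM, linear axes from 0) of 12 genes in the Mrc1-positive (left) and Mrc1-low (right) C1q-high cells of 15 mice, 1 line per mouse, coloured by condition. Folr2, Fcrls, Gas6, Stab1, Ccl8 and Vcam1 were higher in Mrc1-positive cells in 15 of 15 mice, and Plac8, Cxcl9, H2-Aa and Cd74 were lower in 15 of 15.

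The antibody tags are a readout that the rule did not use, although they come from the same cells. Of 87 antibodies with at least 100 counts, edgeR called 35 between Mrc1-positive and Mrc1-low cells, 40.2%, with 18 higher (20.7%) and 17 lower (19.5%). The macrophage antigen F4/80 (the Adgre1 product) ranged from 4401 to 10833 antibody CPM (median 6979) in Mrc1-positive cells, against 2117 to 7304 antibody CPM (median 3309) in Mrc1-low cells, higher in 15 of 15 mice (7049.7 against 3991 antibody CPM, log2 0.76 ± 0.10 (SE), edgeR adjusted p = 2.74e-05). CD304 (neuropilin-1) was higher in 15 of 15 mice as well, at 1826 against 971 antibody CPM. The control antibodies, which have no target, also differed: the Armenian hamster control was at 406 against 163 antibody CPM, log2 1.12 ± 0.16 (SE), edgeR adjusted p = 4.1e-05 and the rat IgG1 control at log2 0.83. Every antibody to an antigen that was called higher, except CD163, differed by less than both controls did, and CD163 counts came largely from few cells, as described below. The part of the controls in the antibody differences was not tested. The antigens called lower ran against the direction of these controls. Ly6C ranged from 8220 to 15649 antibody CPM (median 12890.5) in Mrc1-positive cells, against 11716 to 27612 antibody CPM (median 20319) in Mrc1-low cells, lower in all 15 mice (12364 against 20159.9 antibody CPM, log2 -0.87 ± 0.08 (SE), edgeR adjusted p = 1.06e-06). Ly6c2 is a gene of the Ly6C antigen, and the rule held its RNA under 2 UMIs in both classes. Relative to depth (medians of 14606.5 and 7496 UMIs) that limit was stricter in Mrc1-positive cells. The Ly6C test is thus not independent of the rule, and no conclusion is drawn from it. CD11c, an integrin of dendritic cells and macrophages, was lower in 15 of 15 mice (log2 -0.76), CD43 in 15 (log2 -0.81), CD11a in 14 (log2 -0.62) and the PD-1 ligand CD274 in 13 (log2 -0.55). The integrin chain ITGB7 differed most of those called lower (log2 -1.16) and was lower in 12 mice. Antibody CPM are shares of a class's tag counts. For the antigens named here as lower, tag counts per cell differed less. Means were over 16 mice for Mrc1-positive cells and 15 for Mrc1-low cells. They were 29.3 against 36.7 counts for Ly6C, 64.9 against 77.3 for CD11c and 17.4 against 20.6 for CD43. For CD11a they were 34.3 against 37.0, for CD274 30.9 against 32.7 and for ITGB7 2.83 against 5.13. By condition, CD274 counts ran the other way in floxed mice, at 33.1 against 29.3 with anti-PD-1 and 28.8 against 27.3 with isotype. CD11a did so in floxed mice given anti-PD-1, at 41.7 against 37.5, and both were lower in the remaining conditions. RNA and antibody CPM ran the same way for Cd274, at 49.7 against 93.5 CPM of RNA.

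The share of Mrc1-positive macrophages among a mouse's cells varied widely between mice. It was 17.1, 27.2, 16.5 and 4.30% in LysM-Cre mice given anti-PD-1, 10.2, 6.37, 16.7 and 25.5% in LysM-Cre mice given isotype, 9.44, 34.2, 13.1 and 23.002% in floxed mice given anti-PD-1 and 8.15, 8.39, 7.91 and 11.5% in floxed mice given isotype. The floxed isotype mice lay close together, and floxed anti-PD-1 mouse 1 overlapped them. Floxed mice averaged 19.9 ± 11.1% with anti-PD-1 and 8.99 ± 1.69% with isotype (SD, n = 4 each), a difference of 10.9 points (two-sided exact permutation test, p = 0.0571, 0.457 after adjustment over 8 share tests), with 13.5 points within E5, 8.33 within E6, and 6.18 to 14.4 with 1 mouse left out. LysM-Cre mice averaged 16.3 ± 9.37% with anti-PD-1 and 14.7 ± 8.39% with isotype (exact permutation p = 0.857), and the pools went opposite ways, 13.8 points higher in E5 and -10.7 points in E6. LysM-Cre and floxed mice did not differ past the threshold with anti-PD-1 (exact permutation p = 0.657) or isotype (5.72 points higher, 2.11 to 8.51 with 1 mouse left out, p = 0.257). The smallest p that 4 against 4 mice allow is 0.0286. Among C1q-high cells, the Mrc1-positive share averaged 63.6 ± 13.7% with anti-PD-1 and 69.0 ± 9.44% with isotype in LysM-Cre mice, and 68.3 ± 9.04% with anti-PD-1 and 67.5 ± 8.47% with isotype in floxed mice (SD, n = 4 each), with exact permutation p of at least 0.571. Counting intervals were mostly narrower than the spread between mice, and the widest were in small samples: the exact 95% binomial interval was 26.9 to 42.04% for floxed anti-PD-1 mouse 2, which had the fewest cells in all (161), and these intervals cover counting error only.

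**Figure D2:**
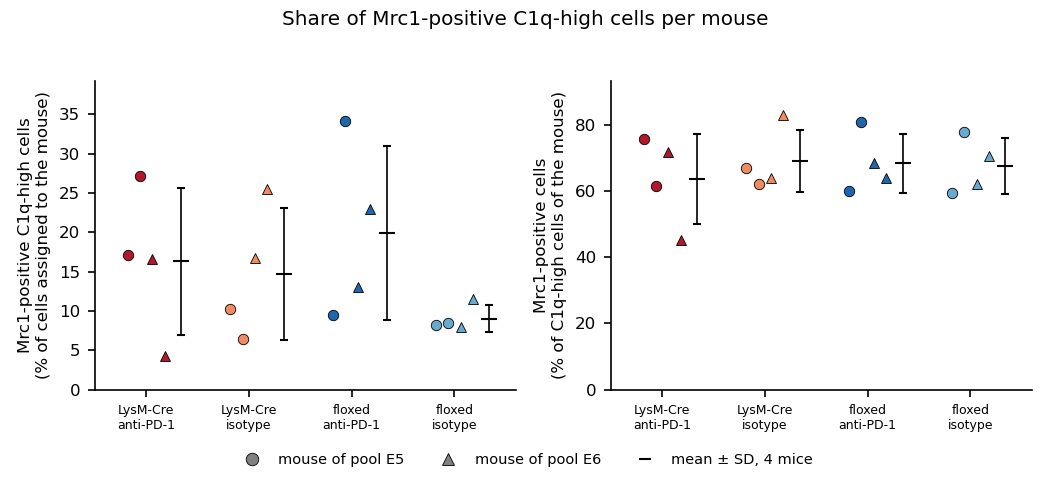
Share of Mrc1-positive macrophages per mouse as a percent of all assigned cells (left) and of C1q-high cells (right), by condition, with circles for pool E5, triangles for pool E6 and bars for mean ± SD of 4 mice. On the left the floxed isotype mice lie between 7.91 and 11.5% and the other conditions spread up to 34.2%, while on the right all 4 conditions overlap.

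The effect of anti-PD-1 on the RNA of these cells was tested on UMIs summed per mouse, so fewer molecules per cell and fewer cells making a molecule cannot be told apart. Averaged over both genotypes, Fabp5, Blvrb, Wfdc17, Ctsl, Adam8, Pkm, Esd and Ropn1l rose with anti-PD-1, and Klrd1 and Crabp1 fell. In this comparison edgeR called 11 of 9646 genes, 0.114%, with 9 higher (0.0933%) and 2 lower (0.0207%), and 1041 (10.8%) were at an unadjusted p under 0.05. The direction of the calls depended on the setting: DESeq2 called 27 higher and 31 lower, with all 11 among them, and the 90% hashtag share described below gave 8 higher and 10 lower by edgeR, 6 of them shared. Fabp5 (chromosome 3, 10012585-10016610), a chaperone that carries fatty acids, had 727, 1069, 943 and 1112 CPM in LysM-Cre mice given anti-PD-1 and 347, 327, 452 and 313 CPM in LysM-Cre mice given isotype. In floxed mice Fabp5 was at 1480.1, 761, 646 and 904 CPM with anti-PD-1 and 199, 392, 599 and 617 CPM with isotype. All 8 anti-PD-1 mice lay above all 8 isotype mice (log2 fold change 1.31 ± 0.22 (SE), adjusted p = 0.044 by edgeR). Blvrb, the gene of biliverdin reductase B, had 280.4, 292, 266 and 257 CPM in LysM-Cre mice given anti-PD-1 and 159, 196, 168 and 229 CPM in LysM-Cre mice given isotype. In floxed mice Blvrb was at 293, 256, 257 and 248 CPM with anti-PD-1 and 182, 191, 158 and 188 CPM with isotype. Again no isotype mouse reached an anti-PD-1 mouse, and the spread within a condition was small (log2 fold change 0.58 ± 0.08 (SE), adjusted p = 0.00887 by edgeR). Wfdc17, a secreted macrophage protein with an antiprotease fold, had 1052, 1455, 1259 and 1112 CPM in LysM-Cre mice given anti-PD-1 and 382, 479, 799 and 813 CPM in LysM-Cre mice given isotype. In floxed mice Wfdc17 was at 990.4, 1976, 1181 and 831 CPM with anti-PD-1 and 549.8, 632, 679 and 454 CPM with isotype. The groups did not overlap here either (log2 fold change 1.07 ± 0.19 (SE), adjusted p = 0.044 by edgeR), and floxed anti-PD-1 mouse 2 was highest.

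Ctsl, the lysosomal protease cathepsin L, had 962, 691, 729 and 956 CPM in LysM-Cre mice given anti-PD-1 and 468, 514, 530.3 and 557 CPM in LysM-Cre mice given isotype. In floxed mice Ctsl was at 707, 845, 736 and 878 CPM with anti-PD-1 and 408, 442, 767 and 645 CPM with isotype. Floxed isotype mouse 3 overlapped the anti-PD-1 mice (log2 fold change 0.63 ± 0.11 (SE), adjusted p = 0.044 by edgeR). Adam8, a membrane metalloprotease, had 115, 120.2, 111 and 206 CPM in LysM-Cre mice given anti-PD-1 and 82.1, 59.01, 50.3 and 43.7 CPM in LysM-Cre mice given isotype. In floxed mice Adam8 was at 172, 168, 200.4 and 167 CPM with anti-PD-1 and 42.6, 91.7, 116 and 136 CPM with isotype. Its LysM-Cre isotype mice were all low, and floxed isotype mice 3 and 4 overlapped the lower anti-PD-1 mice (log2 fold change 1.09 ± 0.20 (SE), adjusted p = 0.0462 by edgeR). Pkm, the pyruvate kinase that ends glycolysis, averaged 817 ± 66.9 CPM with anti-PD-1 and 607 ± 68.2 CPM with isotype (SD, n = 8 each; edgeR log2 0.46, adjusted p = 0.044). Esd, an esterase that detoxifies formaldehyde adducts, averaged 249 ± 20.7 CPM with anti-PD-1 and 188 ± 13.7 CPM with isotype, without overlap (edgeR log2 0.43, adjusted p = 0.044). Ropn1l, known from sperm tails, was low throughout, at 19.6 ± 6.65 CPM with anti-PD-1 and 8.07 ± 2.18 CPM with isotype (edgeR adjusted p = 0.0455). The other gene called higher, the Wnt receptor Fzd1, lay under the 10 CPM that the naming rule asks for.

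Both genes that fell with anti-PD-1 are ones that other cells of these tumours held at higher levels. Klrd1, the NK and T cell receptor chain CD94, had 1.87, 2.31, 3.32 and 1.68 CPM in LysM-Cre mice given anti-PD-1 and 19.8, 41.8, 11.3 and 17.7 CPM in LysM-Cre mice given isotype. In floxed mice Klrd1 was at 6.36, 1.02, 5.10 and 2.58 CPM with anti-PD-1 and 13.3, 19.5, 12.6 and 5.19 CPM with isotype. The anti-PD-1 mice were at or below 6.36 CPM, and floxed isotype mouse 4 overlapped them (log2 fold change -2.42 ± 0.31 (SE), adjusted p = 0.00887 by edgeR). T cells averaged 574 CPM, and the summed T and NK markers within the Mrc1-positive macrophages had mean sums of 30.8 CPM with anti-PD-1 against 70.9 CPM with isotype in LysM-Cre mice, and 17.3 against 55.4 CPM in floxed mice. Klrd1 is itself 1 of these 12 markers. The sums of the other 11 averaged 28.5 CPM with anti-PD-1 (16.6 to 54.9) and 48.2 CPM with isotype (20.8 to 107.8) in LysM-Cre mice, and 13.6 CPM with anti-PD-1 (9.89 to 19.3) and 42.7 CPM with isotype (17.5 to 82.5) in floxed mice. These sums overlapped between treatments, and their part in the Klrd1 result was not tested. Crabp1, which binds retinoic acid, had 14.96, 13.9, 15.5 and 15.1 CPM in LysM-Cre mice given anti-PD-1 and 23.6, 35.5, 23.2 and 38.4 CPM in LysM-Cre mice given isotype. In floxed mice Crabp1 was at 13.9, 12.3, 10.8 and 13.3 CPM with anti-PD-1 and 59.1, 27.7, 22.6 and 29.2 CPM with isotype. All anti-PD-1 mice lay below all isotype mice (log2 fold change -1.22 ± 0.19 (SE), adjusted p = 0.0288 by edgeR), and Crabp1 averaged 143 CPM in T cells and 54.8 CPM in Mrc1-low cells. With cells thinned to equal depth the Crabp1 difference was -0.31 (edgeR adjusted p = 0.776).

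Within pools, the log2 ratios of mean CPM kept their direction in both E5 and E6 for each of these 7 genes: 1.67 and 0.86 for Fabp5, 0.62 and 0.47 for Blvrb, 1.42 and 0.68 for Wfdc17, 0.81 and 0.40 for Ctsl, 1.063 and 0.99 for Adam8, -3.03 and -1.88 for Klrd1, and -1.41 and -1.05 for Crabp1. The number of calls depended on single mice, and was 2 to 11 with a mouse left out. With any 1 of the 16 mice left out in turn, Blvrb and Klrd1 stayed called each time (edgeR adjusted p up to 0.0462 for both), whereas Fabp5 lost its call in 13 of 16 cases (adjusted p up to 0.149), Wfdc17 in 13, Ctsl, Adam8 and Ropn1l in 14, Esd in 15, Pkm in 16 and Crabp1 in 7. By edgeR, Blvrb was not called with cells thinned to equal depth (adjusted p = 0.157), nor Klrd1 without cells of over 2 times the median UMIs (adjusted p = 0.0836). When a barcode's top hashtag had to hold 90% of its hashtag counts, Fabp5, Wfdc17, Ctsl and Ropn1l missed the threshold (edgeR adjusted p = 0.0535 for the first 3 and 0.0673 for Ropn1l), and Wfdc17 and Ctsl also missed it without the CD163-high cells described below.

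**Figure D3:**
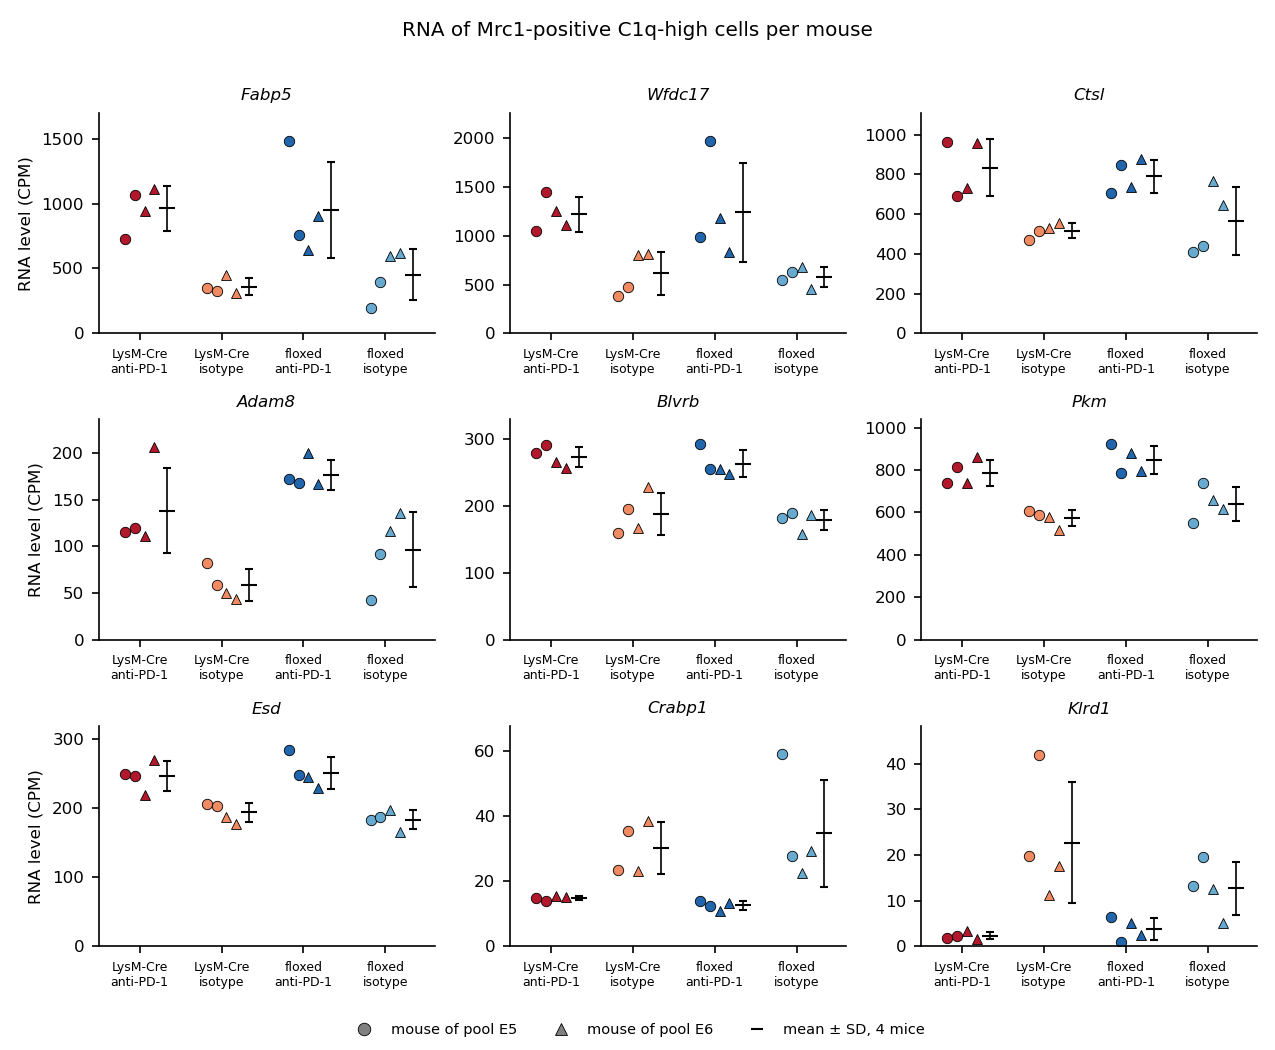
RNA levels (CPM, linear axes from 0) of 9 genes called between anti-PD-1 and isotype mice, summed over each mouse's Mrc1-positive macrophages, with circles for pool E5, triangles for pool E6 and bars for mean ± SD of 4 mice. For Fabp5, Wfdc17, Blvrb and Esd the anti-PD-1 mice of both genotypes lie above the isotype mice, and for Crabp1 below them.

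Few members of the gene groups were called in this comparison, where the median over all genes was 0.00 log2 and 51.1% of genes were fitted higher with anti-PD-1. Of 19 tested genes of lipid-laden macrophages, 2 were called higher, Fabp5 and Ctsl, and 18 were fitted higher (median 0.29). Of 14 iron and haem genes, 1 was called, Blvrb, and 12 were fitted higher (median 0.26), with Hmox1, which opens the haem ring, at log2 0.75 and not called (edgeR adjusted p = 0.401). None of 16 hypoxia and glycolysis genes was called, and all 16 were fitted higher (median 0.24). Of 17 matrix and protease genes, 1 was called, Adam8 (median 0.11). Interferon-response genes were fitted lower in 28 of 33 cases (median -0.38), MHC class II genes in 9 of 10 (median -0.19) and monocyte genes in 10 of 15 (median -0.38), with none called. None of 22 resident and perivascular genes (median 0.20), 18 chemokines (median 0.32) or 17 cell cycle genes (median 0.16) was called.

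Tested within each genotype, anti-PD-1 gave fewer calls. In LysM-Cre mice 520 genes (5.39%) were at an unadjusted p under 0.05 and 1 was called, 0.0104%, which was Klrd1 (log2 fold change -3.25 ± 0.46 (SE), adjusted p = 0.0266 by edgeR), and that call was lost when any 1 anti-PD-1 mouse or isotype mouse 2 or 4 of the LysM-Cre genotype, or isotype mouse 2 of the floxed genotype, was left out (edgeR adjusted p up to 0.567). In floxed mice edgeR called none (0% of 9646), with 961 genes (9.96%) at an unadjusted p under 0.05. There DESeq2 called 20 of the 2353 genes to which it gave an adjusted p (0.85%). The interaction of genotype and treatment, which tests whether the response differed between genotypes, also had no call (0%), with 418 genes (4.33%) at an unadjusted p under 0.05 and none called by DESeq2. A different response to anti-PD-1 in Mrc1-positive than in Mrc1-low cells was called for no gene (0% of 9584, 350 or 3.65% at an unadjusted p under 0.05, none by DESeq2), and the same held for a different effect of genotype (0%, 313 or 3.27% unadjusted, none by DESeq2).

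Of the 87 antibodies, 31 (35.6%) were at an unadjusted edgeR p under 0.05 for anti-PD-1 over both genotypes. After adjustment 4 were called lower, 4.6% of the 87, and none was called higher. The same 4 were called lower under each of 5 other choices of cells, but antibodies were then also called higher: 4 with the 90% hashtag share, 2 with at least 3 Mrc1 UMIs, 6 without high-UMI cells, 5 with the 1852 cells that passed the gate after gene UMIs were thinned to 5000 per cell (antibody counts were not thinned), and 7 without the CD163-high cells. They read CD169 (sialoadhesin, the Siglec1 product), CD115 (the CSF1 receptor), CD68 (a lysosomal glycoprotein partly at the surface) and CX3CR1 (the fractalkine receptor), all proteins of the monocyte and macrophage lineage. The antibodies are read through DNA tags of 15 bases sequenced as the second read, shown here for 3 of the 4, for CD163 described below and for the 2 controls that set the level of a tag with no target.
CD169: ATTGACGACAGTCAT
CD68: CTTTCTTTCACGGGA
CX3CR1: CACTCTCAGTCCTAT
CD163: GAGCAAGATTAAGAC
Armenian hamster control: CCTGTCATTAAGACT
Rat IgG1 control: ATCAGATGCCCTCAT

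The CD169 tag had 470.4, 502, 403 and 588 antibody CPM in LysM-Cre mice given anti-PD-1 and 716, 884, 654 and 1052 antibody CPM in LysM-Cre mice given isotype. In floxed mice the CD169 tag was at 339, 428, 503 and 450.4 antibody CPM with anti-PD-1 and 2773, 1103, 878 and 970 antibody CPM with isotype. No anti-PD-1 mouse reached an isotype mouse, and floxed isotype mouse 1 stood far above the rest (log2 fold change -1.12 ± 0.24 (SE), adjusted p = 0.00901 by edgeR). CD115 had 403, 365, 376 and 336 antibody CPM in LysM-Cre mice given anti-PD-1 and 618, 482, 664 and 1839.5 antibody CPM in LysM-Cre mice given isotype. In floxed mice CD115 was at 283, 409, 269 and 360.3 antibody CPM with anti-PD-1 and 1043, 711, 624 and 666 antibody CPM with isotype. The anti-PD-1 mice formed a narrow band under all isotype mice (log2 fold change -1.11 ± 0.19 (SE), adjusted p = 0.00319 by edgeR). The control antibodies were in the range of both: the Armenian hamster control had 771, 225, 376 and 159.5 antibody CPM in LysM-Cre mice given anti-PD-1 and 355, 228, 202 and 883 antibody CPM in LysM-Cre mice given isotype. In floxed mice the hamster control was at 641, 1494, 312 and 424 antibody CPM with anti-PD-1 and 287, 512, 238 and 478 antibody CPM with isotype, and it was not called (edgeR adjusted p = 0.364). The rat IgG1 control lay between 145 and 668 antibody CPM and was not called either (edgeR adjusted p = 0.196). In anti-PD-1 mice CD115 and CD169 were thus within the range of tags without a target.

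CD68 and CX3CR1 lay above the hamster control in every mouse, CX3CR1 by far. CD68 had 2168, 1342, 1193 and 1360.2 antibody CPM in LysM-Cre mice given anti-PD-1 and 2143, 2197, 2374 and 3991 antibody CPM in LysM-Cre mice given isotype. In floxed mice CD68 was at 1523, 1885, 1340.2 and 1618 antibody CPM with anti-PD-1 and 3777, 2672, 1910.2 and 2999 antibody CPM with isotype. LysM-Cre anti-PD-1 mouse 1 overlapped the lower isotype mice (log2 fold change -0.73 ± 0.15 (SE), adjusted p = 0.00694 by edgeR). CX3CR1 had 7599, 5137, 4489 and 5457 antibody CPM in LysM-Cre mice given anti-PD-1 and 9649, 7965, 8952 and 17735 antibody CPM in LysM-Cre mice given isotype. In floxed mice CX3CR1 was at 6021, 6853, 7499.6 and 6865 antibody CPM with anti-PD-1 and 16021, 13478, 6864 and 9637 antibody CPM with isotype. Floxed isotype mouse 3 was as low as anti-PD-1 mice, and the others were higher (log2 fold change -0.73 ± 0.17 (SE), adjusted p = 0.014 by edgeR). All 4 calls held under the 6 alternatives tried, and with mice left out in turn only CX3CR1 lost its call, when mouse 2 of the LysM-Cre anti-PD-1 condition was left out (edgeR adjusted p = 0.0503). The matching RNAs were not called: Siglec1 had log2 -0.91 ± 0.23 (SE, edgeR adjusted p = 0.179), Csf1r -0.11 ± 0.08, Cd68 0.25 ± 0.10 and Cx3cr1 -0.31 ± 0.15. Siglec1 RNA had 12.5, 28.9, 7.76 and 16.8 CPM in LysM-Cre mice given anti-PD-1 and 16.98, 27.4, 18.7 and 33.1 CPM in LysM-Cre mice given isotype. In floxed mice Siglec1 was at 14.5, 10.2, 19.3 and 13.3 CPM with anti-PD-1 and 43.1, 49.05, 25.01 and 26.6 CPM with isotype, so that floxed anti-PD-1 mice lay below all floxed isotype mice while the LysM-Cre mice overlapped.

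In floxed mice alone, 3 antibodies fell with anti-PD-1, 3.45%: CD169 (log2 fold change -1.64 ± 0.35 (SE), adjusted p = 0.0212 by edgeR), CD115 (log2 fold change -1.21 ± 0.27 (SE), adjusted p = 0.0212) and CD68 (log2 fold change -0.80 ± 0.21 (SE), adjusted p = 0.0477). CD169 lost its call without floxed anti-PD-1 mouse 1 or 4, CD115 without mouse 2, 3 or 4 of the LysM-Cre anti-PD-1 condition, mouse 1 or 4 of the floxed anti-PD-1 condition or mouse 1 of the floxed isotype condition, and CD68 in 13 of 16 such fits. CD115 and CD68 were also not called with the 1852 cells that passed the gate after thinning. In LysM-Cre mice none was called (0%), with 15 (17.2%) at an unadjusted p under 0.05, against 12 (13.8%) in floxed mice. No antibody was called for the interaction of genotype and treatment (0%, 1 or 1.15% at an unadjusted p under 0.05), so that the genotypes were not shown to differ in this response.

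**Figure D4:**
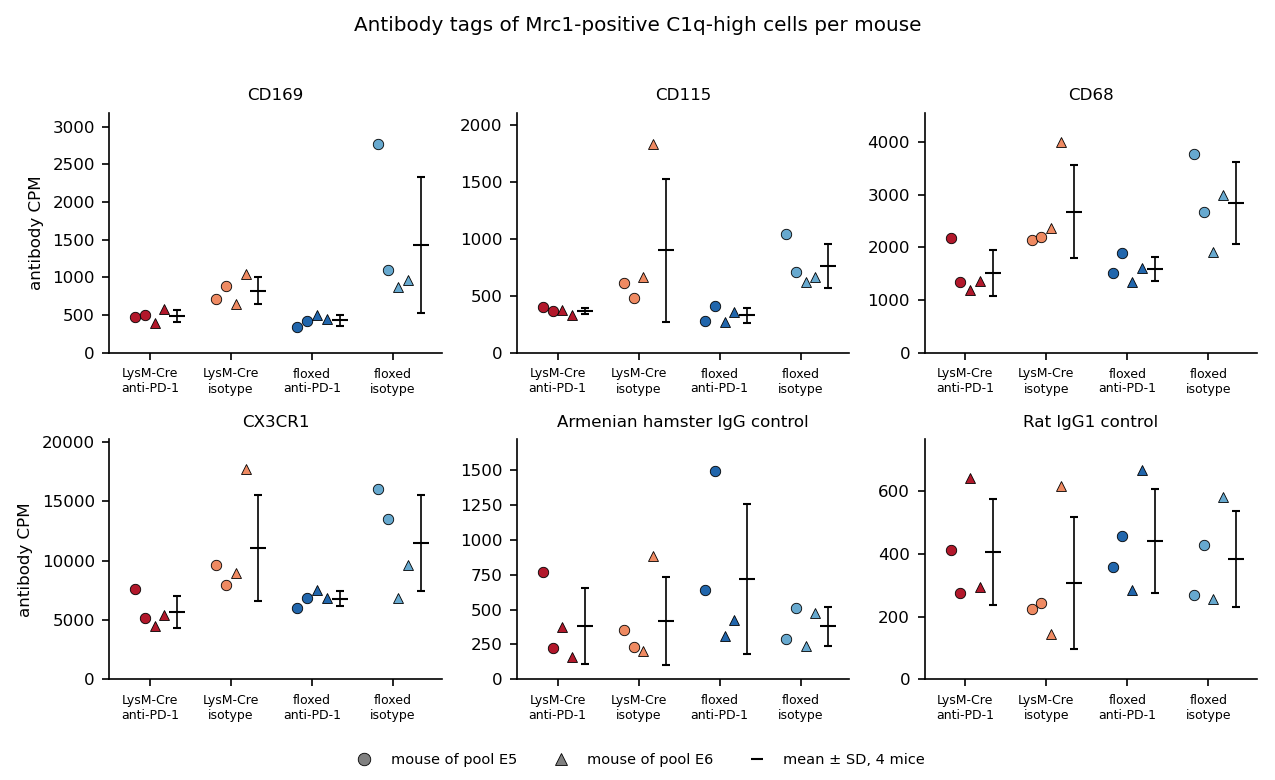
Antibody tag levels (antibody CPM, tag counts summed over a mouse's Mrc1-positive macrophages and scaled to a common total, linear axes from 0) of CD169, CD115, CD68, CX3CR1 and 2 control antibodies, with circles for pool E5, triangles for pool E6 and bars for mean ± SD of 4 mice. CD169 and CD115 are lower in all 8 anti-PD-1 mice than in any isotype mouse, and the 2 controls overlap between all conditions.

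The targeted gene was read before the genotypes were compared. Nr3c1 had 18.7, 21.2, 27.7 and 35.2 CPM in LysM-Cre mice given anti-PD-1 and 29.2, 27.05, 39.4 and 76.02 CPM in LysM-Cre mice given isotype. In floxed mice Nr3c1 was at 67.1, 66.4, 57.8 and 49.9 CPM with anti-PD-1 and 86.6, 61.5, 60.9 and 85.7 CPM with isotype. With anti-PD-1 the LysM-Cre mice lay below all floxed mice (log2 fold change -1.29 ± 0.29 (SE), adjusted p = 0.593 by edgeR), and with isotype LysM-Cre mouse 4 lay among the floxed mice (log2 fold change -0.71 ± 0.25 (SE), adjusted p = 1 by edgeR). Averaged over treatments the difference was -1.0 ± 0.19 (SE, edgeR adjusted p = 0.255). Before adjustment over all genes, edgeR p was 0.00036 with anti-PD-1, 0.0117 with isotype and 7.8e-05 averaged. The difference was in the direction of the labels in every comparison but past the adjusted threshold in none. The averaged difference passed that threshold without LysM-Cre isotype mouse 4 (log2 -1.20, edgeR adjusted p = 0.00855) and by DESeq2 (adjusted p = 0.0019). It also did with no filter on low counts (edgeR adjusted p = 1.18e-12), a setting that gave more gene calls in every comparison of conditions. The reads come from the 3′ end of the transcript and the floxed exon is not given in the sources used here, so transcripts that lost it may still be counted. Lyz2, the lysozyme gene whose locus carries the Cre, averaged 5258 ± 2556 CPM in LysM-Cre and 8475 ± 4164 CPM in floxed mice (SD, n = 8 each; edgeR log2 -0.63, adjusted p = 0.905).

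No gene was called between LysM-Cre and floxed mice. edgeR called 0 of 9646 with anti-PD-1 (0%, 764 or 7.92% at an unadjusted p under 0.05, none by DESeq2), 0 with isotype (0%, 198 or 2.05% unadjusted, 1 by DESeq2) and 0 averaged over treatments (0%, 500 or 5.18% unadjusted, 3 by DESeq2). Of 22 tested glucocorticoid-response genes, 14 were fitted lower in LysM-Cre mice (median -0.07, against 0.00 over all genes), none called. All 17 cell cycle genes were fitted lower (median -0.22), 8 of 10 MHC class II genes higher (median 0.49) and all 8 Fc receptor genes higher (median 0.09), again with none called. Resident and perivascular genes had a median of -0.10 over 22 tested.

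One antibody was called between the genotypes. CD163, the haemoglobin scavenger receptor, had 3099, 3945, 956 and 1360.2 antibody CPM in LysM-Cre mice given anti-PD-1 and 1132, 842, 1814 and 9886 antibody CPM in LysM-Cre mice given isotype. In floxed mice CD163 was at 43904, 63819, 115119 and 18252 antibody CPM with anti-PD-1 and 1117, 2775, 26279 and 24875 antibody CPM with isotype. With anti-PD-1 every LysM-Cre mouse lay below every floxed mouse (log2 fold change -4.39 ± 0.96 (SE), adjusted p = 0.0322 by edgeR, 1 of 87 antibodies or 1.15%). The call was lost with the cells that passed the gate after thinning (edgeR adjusted p = 0.333), and also when mouse 1, 3 or 4 of the LysM-Cre or mouse 1, 2 or 3 of the floxed anti-PD-1 condition was left out (edgeR adjusted p up to 0.148). With isotype the 2 floxed mice of E6 were high, the 2 of E5 were within the range of the LysM-Cre mice, and no antibody was called (0%, 4 at an unadjusted p under 0.05). Averaged over treatments CD163 was again the 1 antibody called, 1.15% (log2 fold change -3.29 ± 0.65 (SE), adjusted p = 0.0134 by edgeR). That call held with any 1 mouse left out but not with the cells that passed the gate after thinning (edgeR adjusted p = 0.085). Cd163 RNA (chromosome 6, 124304636-124330529) had 1.25, 8.48, 2.22 and 1.68 CPM in LysM-Cre mice given anti-PD-1 and 1.89, 1.41, 0 and 10.4 CPM in LysM-Cre mice given isotype. In floxed mice Cd163 was at 26.6, 71.5, 88.9 and 10.3 CPM with anti-PD-1 and 1.83, 5.33, 36.7 and 22.7 CPM with isotype. It ran the same way at low levels and was not called (averaged over treatments log2 fold change -2.57 ± 0.63 (SE), adjusted p = 0.905 by edgeR).

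Most CD163 counts of the mice with high levels came from few cells. Counted cell by cell, the median Mrc1-positive macrophage held 1, 1, 2 and 3 CD163 tag counts in the LysM-Cre mice given anti-PD-1, 1, 1, 3 and 6 in those given isotype, 1, 1, 3 and 3 in floxed mice given anti-PD-1 and 1, 3, 5 and 5 in floxed mice given isotype, with higher medians in E6 than in E5 and no clear order by genotype. A limit of 100 counts, set after the values were seen and given with no test, was reached by 43 of the 2422 cells (1.78%), from 11 mice. They numbered 1, 1, 0 and 0 in the LysM-Cre mice given anti-PD-1, 0, 0, 1 and 6 in those given isotype, 2, 4, 9 and 2 in floxed mice given anti-PD-1 and 0, 1, 11 and 5 in floxed mice given isotype. As shares these were 0.427 ± 0.532%, 0.454 ± 0.574%, 5.28 ± 3.97% and 2.21 ± 2.27% in that order (SD, n = 4 each). The median of the 43 was 786 counts, against 2 in the other cells. Near the limit, 23 cells held 50 to 99 counts and 11 held 100 or more but under 200, and a Cd163 UMI was found in 2 and 1 of these, whereas 27 of the 32 cells with 200 or more counts had one.

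In floxed anti-PD-1 mice the CD163-high cells held 98.01, 97.97, 98.7 and 90.7% of all CD163 counts of the Mrc1-positive macrophages. A single cell gave 95.1% in floxed anti-PD-1 mouse 1, with 8856 counts. Without the 43 cells, an alternative added after seeing the data, the CD163 difference between LysM-Cre and floxed mice was -0.39 log2 with anti-PD-1 and -0.37 averaged over treatments. The CD163 difference between Mrc1-positive and Mrc1-low cells (log2 fold change 1.54 ± 0.39 (SE), adjusted p = 0.00573 by edgeR, higher in 11 of 15 mice) was 0.03 without them. The cells were removed by their CD163 counts, so a smaller CD163 difference follows from the removal, and these 3 values are given with no test. Of 626 Cd163 UMIs, 467 (74.6%) were in these 43 cells, 28 of which had one. In LysM-Cre isotype mouse 4, by contrast, 64 cells had a Cd163 UMI and the 6 CD163-high cells held 7 of 89 UMIs. The 4 antibodies that fell with anti-PD-1 were spread over more cells: the 5% of cells with most counts held a median over mice of 28.5% of CD169, 37.0% of CD115, 24.2% of CD68 and 18.4% of CX3CR1 counts, against 72.2% for CD163.

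**Figure D5:**
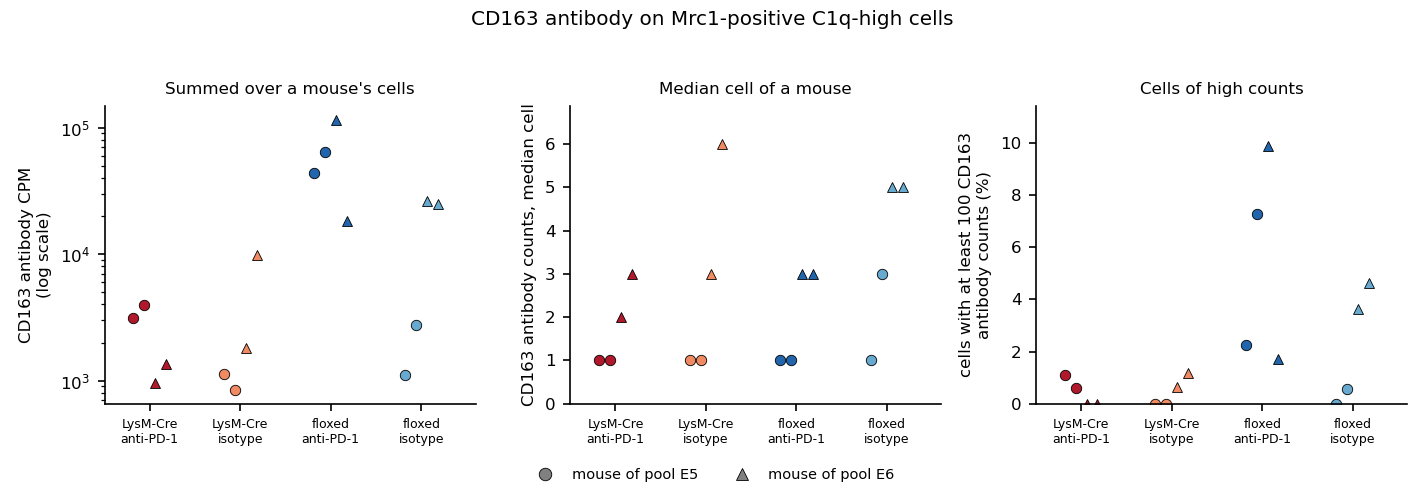
CD163 antibody on Mrc1-positive macrophages per mouse, as antibody CPM summed over a mouse's cells (left, log axis), as the count of the median cell (middle) and as the percent of cells with at least 100 counts (right), by condition, with circles for pool E5 and triangles for pool E6. The floxed anti-PD-1 mice lie above the LysM-Cre mice on the left and the right, while the median cell holds 1 to 6 counts in every condition.

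Summed over their cells, the CD163-high macrophages held more RNA of several lectin, complement and chemokine genes than the other Mrc1-positive macrophages, and less of inflammatory genes. This is a description of 43 cells, 34 of them from floxed mice, with no test. UMIs were summed without regard to the mouse. Of the 43, 11 came from floxed isotype mouse 3 and 9 from floxed anti-PD-1 mouse 3. LysM-Cre isotype mouse 4 alone held 503 of all 2422 Mrc1-positive macrophages. Differences between mice and between cells thus cannot be told apart here. Cd163 itself was at 709 against 4.20 CPM in CD163-high and other cells. The C-type lectin genes Cd209f (428 against 3.11 CPM), Cd209d (229 against 1.77 CPM) and Cd209g (176 against 1.14 CPM) were at higher levels in them. Within the CD163-high cells their UMIs came from only 9, 10 and 8 of the 43, and the genes are close relatives whose reads may be shared. Lyve1, the hyaluronan receptor, was at 74.3 against 2.09 CPM (11 cells of 4 mice) and the endothelin receptor Ednrb at 149 against 2.69 CPM (15 cells of 8 mice). Broader differences were seen for Ccl8, at 7119 against 538 CPM and in 35 of the 43 cells, and Ccl6, at 2418 against 302 CPM and in 39. The complement genes C6 (105 against 3.25 CPM) and C4b (241 against 37.9 CPM) and the ficolin gene Fcna (184 against 20.9 CPM) were higher too. Folr2 (531 against 112 CPM), Gas6 (399 against 133 CPM) and Igf1 (173 against 40.04 CPM) were higher, while C1qb was level at 5043 against 5030.4 CPM.

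The same cells held less of inflammatory and antigen-presentation genes, with Il1b at 103 against 407 CPM in CD163-high and other cells, Ccl4 at 106 against 429.5 CPM, Ccl5 at 34.9 against 195 CPM, Ifitm1 at 40.96 against 356 CPM, H2-Aa at 1479 against 3061 CPM and Cd74, the class II chaperone, at 3672 against 7819 CPM. Haemoglobin RNA was lower as well, at 34.9 against 2268 CPM for Hbb-bs. Arg1 (37.9 against 180 CPM) and Spp1, a secreted matrix protein (284 against 626 CPM), were lower. The cells were of like depth, at a median of 13453 UMIs against 14635. Their median total of tag counts was 3461 against 1927, but this total includes the CD163 counts by which the cells were picked. The hamster control had a median of 1 against 0 counts, and CD169 of 3 against 1.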

How the data were processed

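The data are unique molecular identifier (UMI) counts of genes, hashtags and surface antibodies in 2 pools of cells, as deposited by the authors in 1 matrix per pool. Per the file headers these counts came from Cell Ranger 6.1.2, whereas version 3.0.1 and mm10 stand in the submitters' processing notes. No other upstream setting is given in the sources used here. Conditions were read from the deposited list of hashtags, in which the wild-type label was taken as floxed and the KO label as LysM-Cre.

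Barcodes with at least 500 gene UMIs, at most 10% mitochondrial UMIs and a top hashtag of at least 10 counts and 70% of hashtag counts were kept. Their UMIs were summed per mouse and class (at least 20 cells). The sums were tested with edgeR 4.0.16 quasi-likelihood F tests (TMM scaling, filterByExpr, Benjamini-Hochberg adjustment over all genes, or over antibodies with a total of at least 100, threshold 0.05) in 1 model of the 4 conditions with pool as a term. Mrc1-positive and Mrc1-low cells were compared with the mouse as a block. Shares were compared by two-sided exact permutation tests. The fits were tested on simulated data. DESeq2 1.42.0 was an alternative. P-values measure the spread between mice, and intervals cover counting error only.

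The macrophages and the gene lists were chosen with earlier results of these data known. Named genes are those past the threshold with the fitted sign in most mice, the up to 10 largest changes per direction at 10 CPM or more (12 at 50 CPM for the 2 classes), the markers and the list members called. Other genes named as examples, and those of the CD163-high cells, were chosen after their values were seen. The labels give mice no pairing, so no pairs were formed.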

Additional observations from a re-analysis of the deposited data

Results flagged for a closer look

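In 84 groups of 4 mice, 8 held a mouse whose gap to the nearest other mouse took up more of the group's range than Dixon's 95% critical value allows, and chance gives about 1 such group in 20. The share of Mrc1-positive macrophages among all cells was 11.5% (11.514) in floxed isotype mouse 4, above the other 3 mice of its condition. Adam8 RNA stood apart in both anti-PD-1 conditions, with 206.29 CPM in LysM-Cre mouse 4 and 200.45 CPM in floxed mouse 3, each the highest of its 4 mice. Cd163 RNA was 8.4754 CPM in LysM-Cre anti-PD-1 mouse 2, whose UMIs came mostly from 1 CD163-high cell.

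Among antibodies, CD169 was 2773 antibody CPM in floxed isotype mouse 1. LysM-Cre isotype mouse 4 held the other 3, with CD115 at 1839.5, CD68 at 3991.3 and CD163 at 9886.2 antibody CPM, each the highest of its condition. That mouse also had the most Mrc1-positive macrophages (503), the shallowest Mrc1-low cells (median 2955.5 UMIs) and the highest Nr3c1 level of the LysM-Cre mice, at 76.0 CPM. The part of these features in its antibody levels was not tested.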

How the results depend on the processing

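Alternatives were a stricter hashtag share of 90%, Mrc1 at 3 UMIs, no high-UMI cells, cells thinned to 5000 gene UMIs (antibody counts not thinned), no replicate block (no pool or mouse term), RLE scaling, no filter on low counts, DESeq2, each mouse left out in turn and, chosen after seeing the data, no CD163-high cells. The effect of anti-PD-1 gave, with no filter, DESeq2 and the 90% share, 537, 58 and 18 genes averaged over genotypes (229, 27 and 8 of them higher). In floxed mice it gave 301 genes with no filter and 20 with DESeq2, the latter out of 2353 genes with an adjusted p. In LysM-Cre mice it gave 265 with no filter, 9 with DESeq2 and 2 with the 90% share, and 0 without high-UMI cells, with thinned cells and with no replicate block. LysM-Cre against floxed gave, with no filter, 150 genes with anti-PD-1, 57 with isotype and 137 averaged, DESeq2 gave 1 with isotype and 3 averaged, and the 90% share gave 1 averaged. The interaction gave 73 with no filter. A different response of the 2 classes was called for 53 (treatment) and 33 (genotype) genes with no filter, 5 and 1 with thinned cells, and 1 (treatment) with Mrc1 at 3 UMIs. Between the classes, no filter gave 1271 genes higher and 881 lower, against 938 and 1057. The cause of the higher counts with no filter was not tested.

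For antibodies, anti-PD-1 averaged over genotypes gave 8 with the 90% share, 13 without high-UMI cells, 15 with thinned cells and 11 without CD163-high cells (4, 6, 5 and 7 of them higher), and in floxed mice 1 with thinned cells and 1 without CD163-high cells. LysM-Cre against floxed with anti-PD-1 gave 0 with the 90% share or thinned cells, and averaged over treatments 0 with thinned cells. The counts of this comparison without CD163-high cells are not read, because those cells were removed by the counts of the 1 antibody called. The share of C1q-high cells changed sign in floxed mice (anti-PD-1 minus isotype -0.833 points without high-UMI cells, -0.316 thinned) and for LysM-Cre minus floxed with isotype (-0.334 with Mrc1 at 3 UMIs, -2.02 thinned).

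With 1 mouse left out, the count of genes ranged from 2 to 11 for anti-PD-1 averaged over genotypes, 0 to 2 in LysM-Cre mice, 0 to 1 for LysM-Cre against floxed with isotype and averaged, 1675 to 1995 for the 2 classes and 0 to 1 for a different response of the classes to treatment or genotype. Antibody counts ranged from 0 to 4 for anti-PD-1 in floxed mice, 3 to 10 averaged, 0 to 1 for LysM-Cre against floxed with anti-PD-1 and 26 to 36 for the classes. Share differences ranged from 6.18 to 14.4 points of all cells (anti-PD-1, floxed), 2.11 to 8.51 (LysM-Cre against floxed with isotype), -2.07 to 5.57 (anti-PD-1 in LysM-Cre mice), -7.27 to 1.11 (LysM-Cre against floxed with anti-PD-1), and of C1q-high cells from -3.35 to 4.33 (anti-PD-1, floxed), -9.52 to 0.71 (anti-PD-1, LysM-Cre), -8.80 to 1.42 (genotype, anti-PD-1) and -3.07 to 5.04 (genotype, isotype).

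Cd163 RNA changed sign for anti-PD-1 in LysM-Cre mice, at -1.92 log2 without high-UMI cells, -1.12 thinned, -1.33 without CD163-high cells, -0.25 with no replicate block and -1.37 to 1.97 with single mice left out. Without CD163-high cells it was -0.64 for anti-PD-1 averaged and 0.14 for LysM-Cre against floxed with isotype. Siglec1 RNA was 0.18 with thinned cells for LysM-Cre against floxed averaged, and -0.35 to 0.43 with anti-PD-1 with single mice left out. Depth limits rare genes such as Cd163, with 626 UMIs in all.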
